A study of Mus musculus with 6 samples.

Results

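Capillary endothelial cells line the smallest vessels of the brain. Here they were 1251 of 1666 endothelial cells (75.09%) and of 6323 cells kept from sorted adult mouse brain (19.78%). A cell counted as endothelial when the UMIs (unique molecules) of Cldn5, Flt1, Pecam1 and Cdh5 summed to at least 5 and to more than those of Vtn, Rgs5 and Slc1a3. Of these, cells with at least 3 UMIs of Mfsd2a, Slco1a4 and Spock2 together, and at most 1 UMI of Vwf, Vcam1, Icam1, Bmx, Gkn3 and Plvap together, counted as capillary. The members were chosen by their own UMI counts of these genes, so differences between capillary and other endothelial cells are given as a description with no test, and the genes of the rule are not results.

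All mice were 8 to 12 weeks old, and the study asked how the gap junction protein connexin 43, encoded by Gja1, acts between vessels and neural stem cells of the adult subventricular zone. The control group carried Cx43flox/flox alleles, in which Gja1 is flanked for deletion but not deleted. The other groups were labelled Cx43GlastiKO and Cx43ECiKO, with library titles that begin with Glast and Vecad. These names point to deletion in Glast-expressing glia and in endothelium, while the driver lines, the way deletion was induced and the number of mice per library are not given in the sources used here. Cortex and subventricular zone were digested, CD45-negative cells were sorted into a CD31+ endothelial and a Glast+ progenitor fraction, and each group was deposited as 2 droplet libraries that the labels call biological replicates. Capillary cells were 70.5%, 61.0% and 75.4% of the kept cells in the replicates 1 of control, GlastiKO and ECiKO, but 3.50%, 3.76% and 0.639% in the replicates 2. How the sorted fractions were divided between the libraries is not given in the sources used here, so p-values measure the spread between these libraries, which may be technical.

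Brain capillary endothelium forms the blood-brain barrier: tight junctions seal the wall, efflux pumps return drugs to the blood, and carrier proteins move glucose, amino acids and other nutrients into the tissue. Gene expression shifts gradually along the capillary bed, from an arteriole side with Cxcl12 and Notch-related genes to a venule side rich in transferrin receptor and amino acid carriers. Endothelial cells also make connexins, the subunits of channels that join neighbouring cells, and secrete factors that act on the stem cells beside them.

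The libraries differed strongly in makeup. Those numbered 1 held 1157 of the capillary cells (545 in control, 303 in GlastiKO and 309 in ECiKO), and those numbered 2 held 94 (33, 45 and 16). The summed capillary UMIs were 1823211, 988099 and 967174 in control, GlastiKO and ECiKO replicate 1, but 87961, 141567 and 30670 in the replicates 2. Each group therefore set 1 deep sum beside 1 shallow sum, and ECiKO replicate 2, where a capillary cell had a median of 1302 UMIs against 2060 to 3216 elsewhere, carried the least information. No capillary cell shared its barcode with a kept cell of another library.

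**Figure D1:**
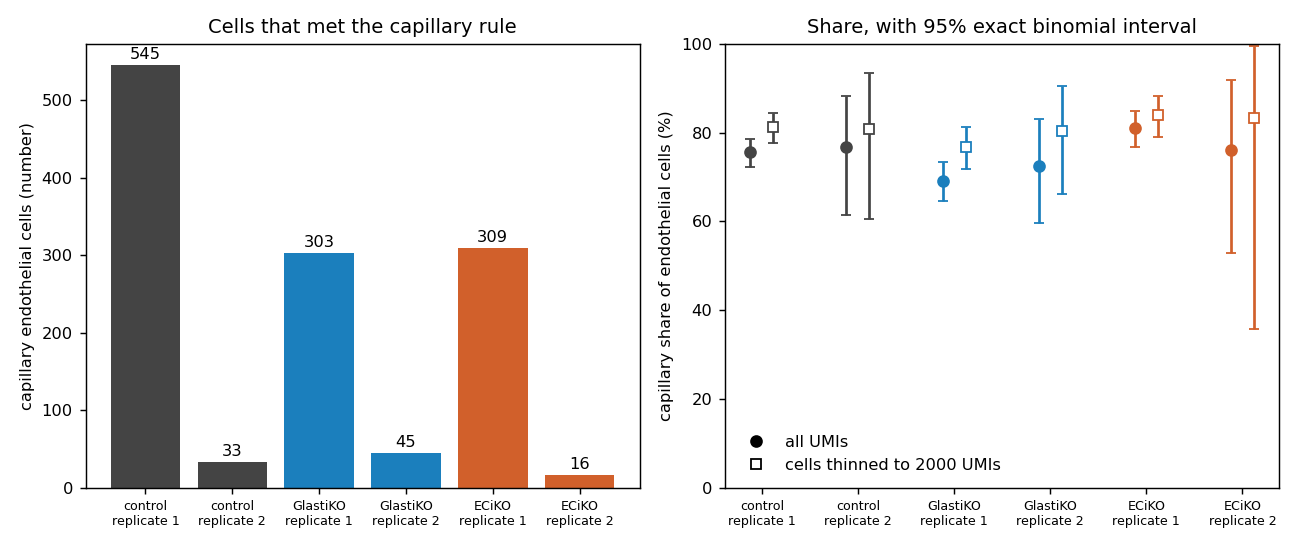
Left, bars give the number of capillary endothelial cells in each of the 6 libraries, from 16 in ECiKO replicate 2 to 545 in control replicate 1. Right, points give the capillary share of endothelial cells (%) with all UMIs and after thinning each cell to 2000 UMIs, with 95% exact binomial (Clopper-Pearson) intervals, and no library falls below 69.2%.

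The label was checked on markers that the rule did not use. The 10 other capillary markers, among them Slc2a1, Itm2a, Slco1c1 and Abcb1a, summed to between 16291 and 21071 CPM (the gene's UMIs scaled to a fixed total of capillary UMIs per library) in the 6 libraries. In the other endothelial cells they summed to between 12583 and 18812 CPM. In GlastiKO replicate 1 the other cells were higher (16459 against 16291 CPM). Capillary cells were higher in all 3 libraries numbered 1 for 4 of the 10, with a median ratio of 1.15 against 1.02 for all genes compared. Several other brain cell types left few UMIs: pericyte markers summed to at most 7.1 CPM, fibroblast markers to at most 3.0 CPM and microglial or macrophage markers to at most 29.1 CPM. The 13 astroglial markers outside the rule summed to between 615 and 1435 CPM, and to between 0 and 90.9 CPM without Apoe and Gja1. Oligodendrocyte markers followed the library number, with 21.4, 25.3 and 20.7 CPM in the replicates 1 of control, GlastiKO and ECiKO against 534, 261 and 815 CPM in the replicates 2. Their part in the results was not tested. The levels fit endothelium, while these capillary markers hardly separated the class from the other endothelial cells.

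Few cells lay at the capillary marker threshold. More lay at that of the large-vessel and Plvap genes, except in ECiKO replicate 2. Of 176, 10, 135, 17, 72 and 5 other endothelial cells, 169, 10, 131, 16, 67 and 1 exceeded the large-vessel and Plvap limit. Those short of 3 capillary marker UMIs numbered 40, 2, 8, 1, 8 and 4, so most others met that threshold except in ECiKO replicate 2. Counts here are for control, GlastiKO and ECiKO, replicates 1 and 2 of each. Cells with exactly 3 UMIs of the capillary markers numbered 1, 1, 5, 0, 6 and 2 in control, GlastiKO and ECiKO (replicates 1 and 2 of each), and endothelial cells with exactly 2, just outside, numbered 5, 0, 2, 1, 3 and 3. Capillary cells with the single permitted UMI of large-vessel or Plvap genes numbered 109, 10, 61, 8, 59 and 3, and endothelial cells with 2, just outside, numbered 38, 4, 41, 6, 22 and 0.

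The capillary share of endothelial cells was 75.6% in control replicate 1 (95% exact binomial interval 72.3 to 78.7%), 69.2% in GlastiKO replicate 1 (64.6 to 73.5%) and 81.1% in ECiKO replicate 1 (76.8 to 84.9%). In the replicates 2 it was 76.7%, 72.6% and 76.2% with wider intervals. Cells thinned to 2000 UMIs gave 81.3%, 76.9% and 84.1% in the replicates 1 and 80.8%, 80.4% and 83.3% in the replicates 2. The GlastiKO libraries were the lowest under both depths. With 2 libraries per group an exact permutation test cannot reach p below 0.05, so the shares stand as values, with intervals that cover counting error only.

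**Figure D2:**
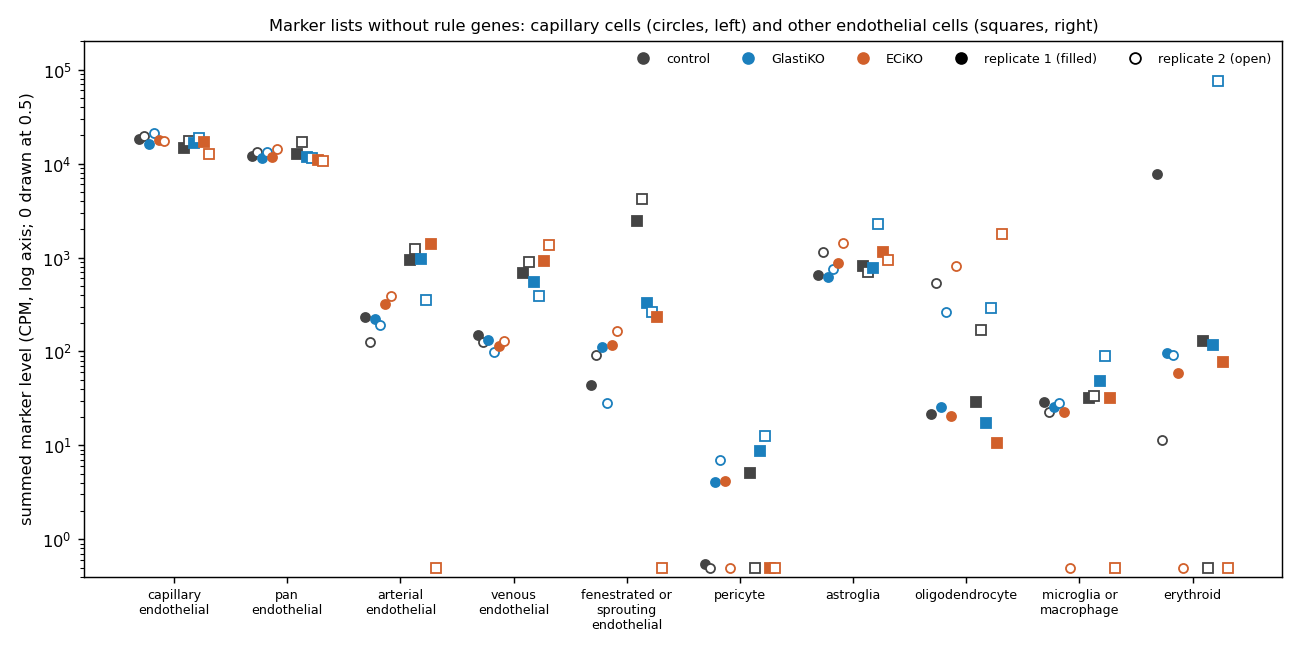
Summed levels (CPM, log axis, with 0 drawn at 0.5) of marker lists without the genes of the rule, for capillary cells (circles) and other endothelial cells (squares) in each library. Capillary markers lie between 16291 and 21071 CPM in capillary cells and between 12583 and 18812 CPM in other endothelial cells. Fenestrated or sprouting markers reach 4220 CPM in other endothelial cells against at most 163 CPM in capillary cells.

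Among genes outside the rule, capillary cells differed from the other endothelial cells in a limited set. Of 4643 genes with at least 200 UMIs over both classes in the libraries numbered 1, 974 were higher and 682 lower in capillary cells in each of the 3 libraries, but 13 were over 2-fold higher in the pooled sums and 35 were at less than 0.5 times the other cells. Cxcl12, a chemokine that retains stem and immune cells in niches, stood at 5272 CPM against 2393 CPM (ratio 2.20). Ivns1abp, an actin-associated protein, had a ratio of 2.44, and Serpine2, a secreted protease inhibitor, one of 2.38. Lrrn3, Nav2 and Ssx2ip had ratios of 2.40, 2.50 and 2.75.

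Genes of larger or permeable vessels were the lowest relative to the other endothelial cells. Mgp, a calcification inhibitor of arteries, stood at 6.6 CPM against 448 CPM (ratio 0.0148). Igfbp3, which binds insulin-like growth factors, had a ratio of 0.0362 in the pooled sums, but 0.00942 in control replicate 1, 0.0979 in GlastiKO replicate 1 and 0.192 in ECiKO replicate 1. Of the other endothelial cells of control replicate 1, 32 of 176 held at least 2 Plvap UMIs, against 2 of 135 and 0 of 72. Ptgs2, the inducible cyclooxygenase, had a ratio of 0.0607. The interleukin receptor gene Il1r1 stood at 20.4 CPM against 97.6 CPM. No capillary cell of any library held a UMI of Gja5 or Fbln5, genes of arteries, which with 1823211 UMIs in control replicate 1 allows at most 1.65 CPM (3 counts).

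Barrier transporters leaned towards the capillary class. Of 23 transporter genes with enough UMIs, 13 were higher and 2 lower in capillary cells in all 3 libraries numbered 1 (21% and 14.7% of all genes), with a median ratio of 1.23 against 1.02 for all 4643 genes. The 10 genes of the venule side of the capillary bed had a median ratio of 1.32, and 20 genes of the Wnt barrier pathway one of 1.20. Other barrier lists stayed near all genes. Tight and adherens junction genes had a median ratio of 1.04, with 3 of 12 higher and 0 lower in all 3 libraries. Vesicle traffic genes had one of 0.991, with 3 of 12 higher and 3 lower. In the other direction, 15 of 22 interferon and class I MHC genes (median ratio 0.788) and 10 of 21 immediate early genes (median ratio 0.664) were lower in capillary cells in all 3 libraries, against 14.7% of all genes.

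The transporters gave no call against control. The glucose carrier Slc2a1 stood at 1905 and 1432 CPM in control, 2183 and 2190 CPM in GlastiKO and 1921 and 1728 CPM in ECiKO. The thyroid hormone carrier Slco1c1 stood at 2823 and 2149, 2573 and 2698, and 3029 and 3032 CPM in the same order. The drug efflux pump Abcb1a stood at 1758 and 1364, 1552 and 1363, and 1804 and 1532 CPM. Both ECiKO libraries were above control for Slco1c1 and both GlastiKO libraries for Slc2a1, while Abcb1a overlapped in both. Over the list, 2 of 25 transporters were separately higher and 8 separately lower in GlastiKO, against 12.7% and 16.9% of all genes, and 4 and 5 in ECiKO, against 12.0% and 16.6%. The edgeR test called 0 of the 25 transporters in each comparison with control (median log2 fold change -0.05 in ECiKO and -0.004 in GlastiKO).

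Within the class, the most variable genes across cells were of several kinds. In capillary cells thinned to 2000 UMIs, the Fano factor (variance over mean, 1 for pure counting noise) was computed for 3000 genes in each library numbered 1, where its median was 1.13 to 1.15. The 30 highest genes of each library had 19 in common. Malat1, a nuclear noncoding RNA, was highest in each library (12.7 in control, 15.5 in GlastiKO and 12.0 in ECiKO). They also included the actin-binding thymosins Tmsb4x and Tmsb10, the immediate early transcription factors Fos (9.30 in GlastiKO, 11.4 in control and 8.23 in ECiKO), Jun, Junb, Jund, Fosb and Egr1, the inducible chaperones Hspa1a and Hspa1b (7.63, 5.91 and 5.28 for Hspa1b in control, GlastiKO and ECiKO), and the flow-responsive factor Klf2. Cxcl12, with 6.15, 6.36 and 5.97, and Bsg, a glycoprotein gene, with 4.78, 4.42 and 4.55, were also among them. The ranking was not adjusted for the mean level of a gene.

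Each labelled group was compared with control on UMI counts summed per library over capillary cells, by edgeR's quasi-likelihood F test over 7889 genes with Benjamini-Hochberg adjustment. Between the libraries labelled ECiKO and control, 2 genes passed an adjusted p of 0.05 (0.0254% of those tested), Gja1 as higher and the haemoglobin gene Hbb-bs as lower (0.0127% each way). Between the libraries labelled GlastiKO and control 10 passed (0.127%), 9 higher (0.114%) and 1 lower (0.0127%). Libraries of the 2 groups did not overlap, in either direction, for 28.6% of genes in ECiKO against control, 29.6% in GlastiKO against control and 29.6% in ECiKO against GlastiKO. Between ECiKO and GlastiKO none passed with edgeR or DESeq2, with 129 genes at an unadjusted edgeR p under 0.05 (1.64%). DESeq2 called 0 genes in the other comparisons too, beside 61 and 113 genes at an unadjusted edgeR p under 0.05 for ECiKO and GlastiKO (0.773% and 1.43%).

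Gja1, the gene the labels name as targeted, was higher in the capillary cells of the libraries labelled ECiKO than in control, opposite to the direction of the label. The groups are therefore called by their labels, and directions hold for the libraries so labelled. The gene lies on chr10:56377330-56402513 (mm10, plus strand). It stood at 70.8 and 79.6 CPM in control (129 and 7 UMIs), 143.7 and 98.9 CPM in GlastiKO (142 and 14 UMIs) and 235.7 and 260.8 CPM in ECiKO (228 and 8 UMIs). Neither ECiKO library overlapped with a control library, and the order control, GlastiKO, ECiKO was the same within the replicates 1 and within the replicates 2. The log2 fold change of ECiKO against control was 1.71 ± 0.36 (SE, n = 2 libraries per group; edgeR adjusted p = 0.0082). GlastiKO gave 0.89 ± 0.35, short of the threshold (edgeR adjusted p = 0.9998). The direct difference between ECiKO and GlastiKO, 0.82 ± 0.34, did not pass either (edgeR adjusted p = 0.9994). The call for ECiKO was lost without control replicate 1 (1.69, edgeR adjusted p = 0.852), without control replicate 2 (1.69, 0.162), without ECiKO replicate 1 (1.67, 0.572), and with DESeq2 (1.67, adjusted p = 1).

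The kit reads the 3′ end of transcripts, and whether the floxed segment includes that end is not given in the sources used here, and if it lies outside, the level of Gja1 RNA does not check the label. In capillary cells thinned to 2000 UMIs, 11.9% of 403 cells in control replicate 1 held a Gja1 UMI (95% exact binomial interval 8.91 to 15.5%), 18.7% of 209 in GlastiKO replicate 1 (13.6 to 24.6%) and 27.3% of 198 in ECiKO replicate 1 (21.2 to 34.0%). The replicates 2 did not follow this order, with 16.7% of 18 thinned cells in control, 15.6% of 32 in GlastiKO and 0% of 5 in ECiKO, where the exact interval reaches 52.2%. Before thinning the shares were 15.4%, 27.1% and 30.7% in the replicates 1, and 18.2%, 28.9% and 18.8% in the replicates 2. Non-endothelial cells of the same libraries were those outside the endothelial rule with at most 1 UMI of Cldn5, Flt1, Pecam1 and Cdh5 together. Their thinned shares were 7.41% of 27 cells, 8.11% of 37 and 28.6% of 7 in the replicates 1. In the replicates 2 they were 39.4% of 789 cells in control, 34.2% of 1059 in GlastiKO and 15.5% of 355 in ECiKO. ECiKO replicate 2 held 2472 non-endothelial cells before thinning. The non-endothelial cells differed in makeup between the library numbers. A Glul UMI was held by 14.8%, 16.2% and 28.6% of them in the replicates 1 of control, GlastiKO and ECiKO. In the replicates 2 the Glul shares were 87.2%, 87.8% and 87.6%.

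The 13 astroglial markers outside the rule, which include Gja1 itself, summed to 644 and 1148 CPM in control, 615 and 763 CPM in GlastiKO and 873 and 1435 CPM in ECiKO. Without Gja1 the sums were 573 and 1069, 472 and 664, and 637 and 1174 CPM, nearly all of it Apoe, a lipid carrier. The other 11 markers summed to 12.1 and 90.9 CPM in control, 5.1 and 70.6 CPM in GlastiKO and 0 and 65.2 CPM in ECiKO. Of the 13 genes 9 had no UMI in either ECiKO library, among them the water channel gene Aqp4 and the glutamate transporter gene Slc1a2. The part of astroglial RNA in the Gja1 level was not tested.

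Other connexins gave no matching pattern. Gjc1, which encodes connexin 45, stood at 144.8 and 136.4 CPM in control, 164.0 and 134.2 CPM in GlastiKO and 123.0 and 97.8 CPM in ECiKO (log2 fold change of ECiKO against control -0.24 ± 0.36; edgeR adjusted p = 0.9995). Gja4, the connexin 37 gene of arteries, was at 6.6, 3.0 and 3.1 CPM in the replicates 1 and had no UMI in the replicates 2. Of 11 connexin and pannexin genes 2 had enough UMIs to be tested, and 3 had none in any library.

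**Figure D3:**
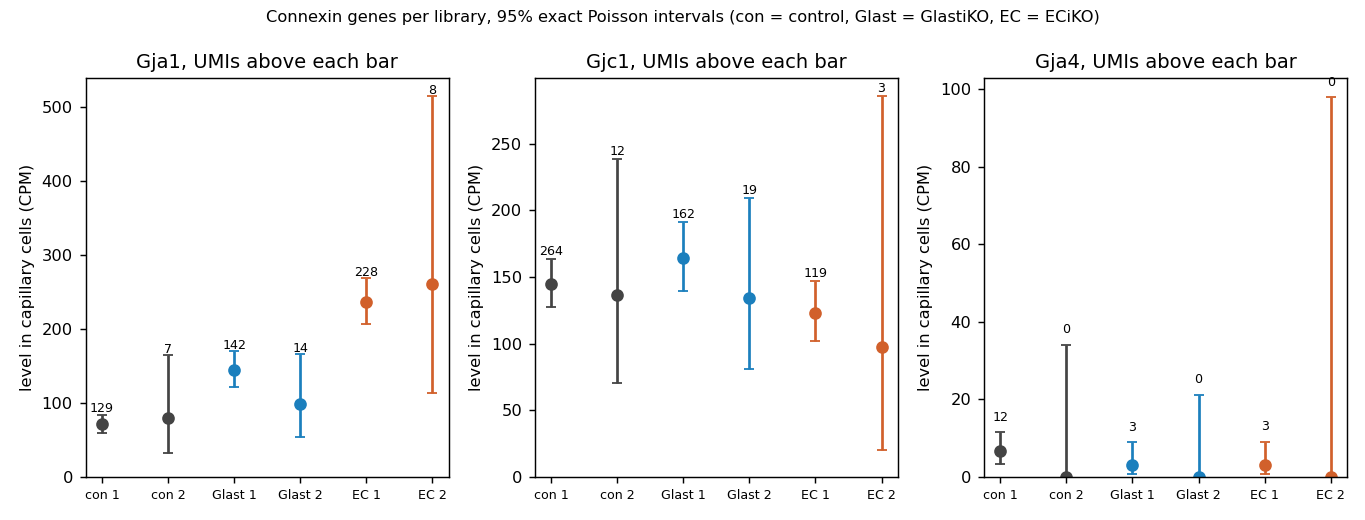
Levels (CPM) of Gja1, Gjc1 and Gja4 in capillary cells of each library, with 95% exact Poisson intervals (for 0 UMIs the bar ends at 3 counts) and the number of UMIs above each bar. Gja1 lies at 70.8 and 79.6 CPM in control and in the ECiKO libraries at 235.7 and 260.8 CPM, the second from 8 UMIs.

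Hbb-bs, the other call in ECiKO and the 1 lower call in GlastiKO, came from a single cell. One capillary cell of control replicate 1 held 13668 of that library's 13967 capillary haemoglobin UMIs (97.9%), and the next cell held 21. Hbb-bs stood at 3588 and 0 CPM in control against 0 to 70.6 CPM in the GlastiKO and ECiKO libraries, so the groups overlapped. Without cells of over 100 haemoglobin UMIs, a choice made after seeing the data, 1 gene passed for ECiKO (Gja1) and 9 for GlastiKO.

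In the libraries labelled GlastiKO, 8 genes outside the rule were higher than in control. Of these, 4 were on the list of immediate early genes, which are switched on within minutes of a stimulus, and these 4 encode transcription factors. Fosb, a subunit of the AP-1 factor, stood at 128.9 and 79.6 CPM in control, 416.0 and 324.9 CPM in GlastiKO and 293.6 and 0 CPM in ECiKO. Its log2 fold change against control was 1.72 ± 0.33 (edgeR adjusted p = 0.000564). Egr1 stood at 83.9 and 136.4, 324.9 and 282.6, and 226.4 and 0 CPM in the same order (1.75 ± 0.34, edgeR adjusted p = 0.000719). Egr3, a relative of Egr1, stood at 11.5 and 11.4, 61.7 and 56.5, and 53.8 and 0 CPM (2.41 ± 0.50, edgeR adjusted p = 0.00279). Nr4a1, an orphan nuclear receptor, stood at 79.5 and 136.4, 269.2 and 261.4, and 155.1 and 0 CPM (1.60 ± 0.34, edgeR adjusted p = 0.00325). For each of these genes the GlastiKO values were all higher than the control values, and so was ECiKO replicate 1. The 0 values of ECiKO replicate 2 allow up to 97.8 CPM (3 counts).

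The other 4 genes were also higher in both GlastiKO libraries. Apold1, an endothelial gene induced by activity and by flow, stood at 234.8 and 238.7 CPM in control, 841.0 and 565.1 CPM in GlastiKO and 367.0 and 32.6 CPM in ECiKO (1.66 ± 0.33, edgeR adjusted p = 0.00132). Ccn1, a matricellular protein and target of the YAP and TAZ coactivators, stood at 102.6 and 0, 269.2 and 134.2, and 179.9 and 0 CPM (1.43 ± 0.33, edgeR adjusted p = 0.0115). Depp1, a gene controlled by FoxO factors, stood at 46.1 and 56.8, 165.0 and 120.1, and 117.9 and 32.6 CPM (1.70 ± 0.36, edgeR adjusted p = 0.00325). Tmem252, a small membrane protein gene, stood at 55.9 and 45.5, 147.8 and 134.2, and 102.4 and 32.6 CPM (1.43 ± 0.35, edgeR adjusted p = 0.0418). No GlastiKO value of the 4 genes reached down to a control value. Fosb lies on chr7:19302696-19310051 and Ccn1 on chr3:145646976-145649981, both on the minus strand of mm10, and Nr4a1 on chr15:101254269-101274795, Egr3 on chr14:70077203-70082614, Apold1 on chr6:134981718-134986836, Depp1 on chr6:116650609-116652794 and Tmem252 on chr19:24674008-24682233, all on the plus strand.

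The ninth higher call was Slc1a3, a gene of the rule and the Glast gene itself, at 3.8 and 0 CPM in control against 18.2 and 98.9 CPM in GlastiKO, from 7, 0, 18 and 14 UMIs. The summed astroglial markers stood at 644 and 1148 CPM in control and at 615 and 763 CPM in GlastiKO.

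Most of these calls depended on single libraries, while the 8 genes stayed higher in GlastiKO in every alternative that tested them. With DESeq2 no gene passed. Without GlastiKO replicate 1 the edgeR adjusted p ran from 0.132 for Egr1 to 0.999 for Ccn1, Depp1 and Tmem252, with log2 fold changes from 0.60 for Ccn1 to 1.53 for Egr1, and Egr3 was below the filter. Without control replicate 1 Egr3 was again below the filter, and Fosb (edgeR adjusted p = 0.05), Egr1 (1), Apold1 (0.176), Depp1 (1), Nr4a1 (1) and Tmem252 (1) did not pass. Without control replicate 2 Fosb (edgeR adjusted p = 0.215), Apold1 (0.237), Ccn1 (1) and Tmem252 (0.525) did not pass, and without GlastiKO replicate 2 Tmem252 did not (0.0865). With membership decided on 2000 UMIs per cell, 1 gene passed. With the stricter membership (at least 5 capillary UMIs and no large-vessel UMI) Egr1 (1.09, edgeR adjusted p = 0.9997), Apold1 (1.34, 0.128) and Tmem252 (1.42, 0.175) did not pass.

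**Figure D4:**
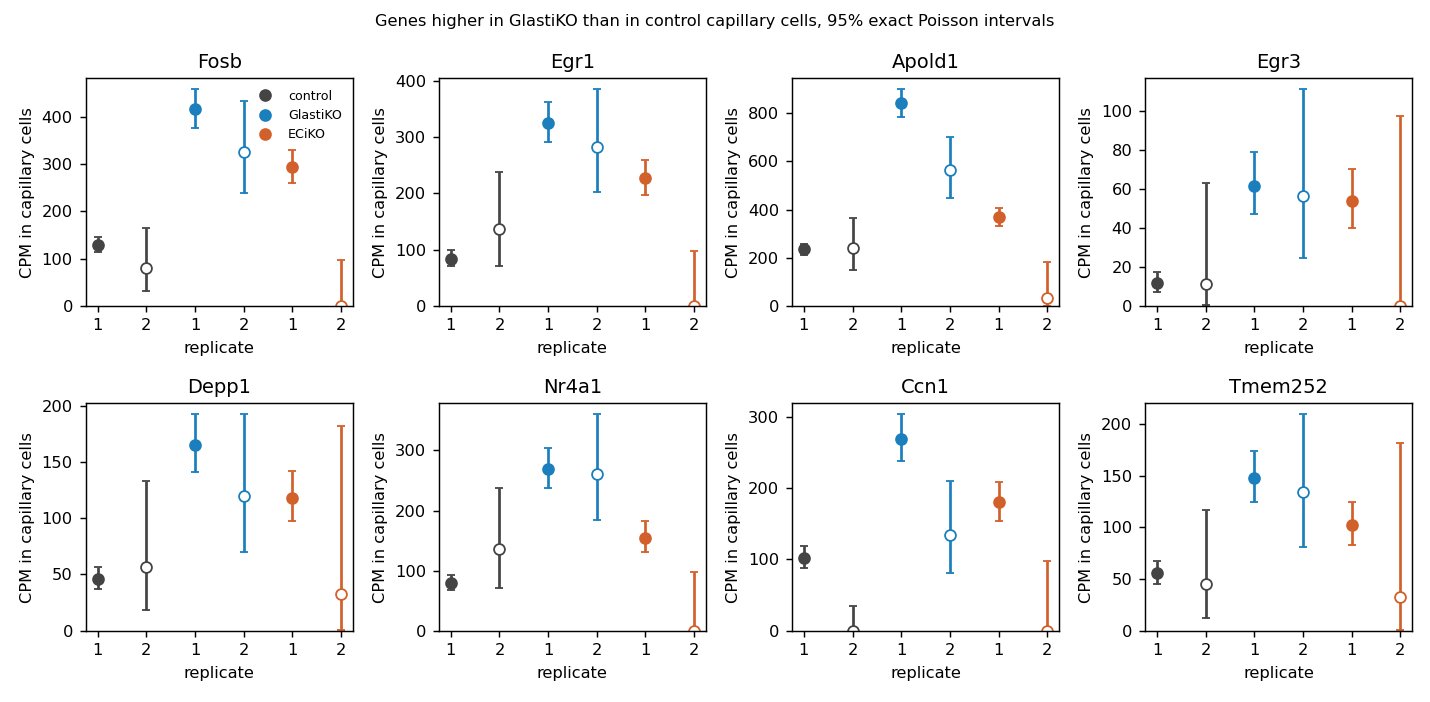
Levels (CPM) of the 8 genes in capillary cells of each library, filled for replicate 1 and open for replicate 2, with 95% exact Poisson intervals (for 0 UMIs the bar ends at 3 counts). GlastiKO points lie above the control points in every panel, as for Fosb with 416.0 and 324.9 CPM against 128.9 and 79.6 CPM, while ECiKO replicate 2 has 0 or 1 UMI.

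The immediate early list as a whole showed the same direction. Of 26 listed genes 22 were tested in GlastiKO, 21 had a log2 fold change above 0, and the median was 0.71 against 0.01 for all genes. In 14 of the 22 the GlastiKO values were all higher than the control values, against 12.7% of all genes tested, and 4 passed the test, against 0.114% called higher among all genes. Fos stood at 430.0 and 682.1 CPM in control against 966.5 and 939.5 CPM in GlastiKO (log2 fold change 0.91 ± 0.33, edgeR adjusted p = 0.9998). Dusp1, a phosphatase that ends the signal, stood at 461.3 and 727.6 CPM against 854.2 and 918.3 CPM (0.70 ± 0.33), and Zfp36, which destabilises the mRNAs of cytokines, at 177.2 and 250.1 CPM against 346.1 and 339.1 CPM (0.85 ± 0.32). In ECiKO the median of the list was 0.11, none of the 22 passed, and 1 was separately higher against 12.0% of all genes. ECiKO replicate 1 lay above control replicate 1 for Fos (756.8 against 430.0 CPM), while ECiKO replicate 2 had 1 Fos UMI.

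In cells thinned to 2000 UMIs, 13.4% of capillary cells in control replicate 1 held a Fos UMI, 30.1% in GlastiKO replicate 1 and 24.2% in ECiKO replicate 1. For Egr1 the shares were 4.96%, 16.7% and 11.6%. In the replicates 2 the Fos shares were 16.7%, 18.8% and 0%, and those of Egr1 16.7%, 9.38% and 0%, from 18, 32 and 5 cells. The order of the replicates 1 was therefore seen for neither gene. The non-endothelial cells of the replicates 1 had higher Fos shares, 59.3%, 70.3% and 42.9%, from 27, 37 and 7 cells. Those of the replicates 2, which differed in makeup as given above, had 16.9%, 10.95% and 15.8%, from 789, 1059 and 355 cells. Immediate early genes also respond to tissue digestion, which the labels give for all groups, and its part in the difference was not tested. Inducible chaperones overlapped between GlastiKO and control: Hspa1a stood at 458.5 and 90.9 CPM in control, 439.2 and 240.2 CPM in GlastiKO and 234.7 and 0 CPM in ECiKO. The edgeR test called 0 of 15 tested heat shock genes in each labelled group.

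Other stimulus-dependent genes leaned the same way in GlastiKO without a call. Of 8 tested glucocorticoid and metallothionein genes 5 had both GlastiKO libraries above control (median log2 fold change 0.72), against 12.7% of all genes. The clock gene Per1 stood at 12.1 and 34.1 CPM in control, 53.6 and 42.4 CPM in GlastiKO and 24.8 and 0 CPM in ECiKO (1.91 ± 0.50, edgeR adjusted p = 0.079). The cell-cycle inhibitor gene Cdkn1a stood at 233.1 and 250.1, 424.0 and 310.8, and 281.2 and 358.7 CPM, and Nfkbia, which restrains NF-kappaB, at 563.8 and 500.2, 825.8 and 890.0, and 677.2 and 228.2 CPM. The metallothioneins Mt1 and Mt2 went the other way, both being lower in GlastiKO than in either control library. In a separate list of 11 tested glycolysis genes, 10 had a log2 fold change above 0 in GlastiKO. Of these 11, 5 were separately higher and 1 separately lower, against 12.7% and 16.9% of all genes. Ldha, the lactate dehydrogenase subunit, stood at 233.7 and 193.3, 338.0 and 423.8, and 228.5 and 260.8 CPM (0.79 ± 0.32 for GlastiKO).

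Basement membrane genes also had 6 of 18 tested members separately higher in GlastiKO, against 12.7% of all genes, among them the collagen genes Col4a1 (532.0 and 466.1 CPM in control, 557.6 and 628.7 CPM in GlastiKO) and Col4a2. The protease gene Adamts1 stood at 264.9 and 261.5 CPM in control, 471.6 and 614.6 CPM in GlastiKO and 254.3 and 163.0 CPM in ECiKO (1.06 ± 0.32, edgeR adjusted p = 0.501). In ECiKO 3 of the 18 were separately higher and 3 separately lower, near the 12.0% and 16.6% of all genes.

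Promoters of 6 of the 8 genes were matched in the RefSeq table of build GRCm38.p6 (Fosb, Apold1, Depp1, Nr4a1, Ccn1 and Tmem252). The 250 bases before each start were searched on both strands for TGACG, the core of the cyclic AMP response element, for TGANTCA, an AP-1 site, and for the CArG box, the site of serum response factor. TGACG was found in Fosb (60 bases before the start), Apold1 (52), Ccn1 (58) and Nr4a1 (233, 213, 69 and 40), and in none of the other 2. It occurs in 17.77% of 32851 such windows, TGANTCA in 6.749% and the CArG box in 1.467%. The last 2 had no match in these 6 windows. The 3 windows below are shown because their genes passed together and share the element, which is in capitals and reads CGTCA where it lies on the other strand; a match is a description of the letters and not evidence of a bound factor.
Fosb, chr7:19310046-19310295, minus strand: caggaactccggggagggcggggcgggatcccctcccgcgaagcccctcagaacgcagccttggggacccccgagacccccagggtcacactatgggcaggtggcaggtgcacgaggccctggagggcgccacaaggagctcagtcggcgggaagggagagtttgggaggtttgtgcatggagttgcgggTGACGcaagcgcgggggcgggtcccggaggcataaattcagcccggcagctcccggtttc
Nr4a1, chr15:101266596-101266845, plus strand: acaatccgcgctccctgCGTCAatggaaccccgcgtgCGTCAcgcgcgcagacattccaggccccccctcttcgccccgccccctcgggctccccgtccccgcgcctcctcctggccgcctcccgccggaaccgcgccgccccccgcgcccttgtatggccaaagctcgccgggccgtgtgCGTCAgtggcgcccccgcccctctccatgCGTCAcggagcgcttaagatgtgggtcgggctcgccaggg
Ccn1, chr3:145649986-145650235, minus strand: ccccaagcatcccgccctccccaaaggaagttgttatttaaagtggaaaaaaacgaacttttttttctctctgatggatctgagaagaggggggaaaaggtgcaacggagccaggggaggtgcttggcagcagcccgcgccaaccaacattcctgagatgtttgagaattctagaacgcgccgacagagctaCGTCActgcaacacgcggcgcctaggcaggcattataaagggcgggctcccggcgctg

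In the libraries labelled ECiKO, genes of the venule side of the capillary bed leaned lower and arterial genes higher, with no call in either list. The venule-side genes leaned as low in GlastiKO. Of 10 venule-side genes 9 had a log2 fold change below 0 (median -0.26 against -0.02 for all genes), and in 7 both ECiKO libraries lay below both control libraries, against 16.6% of all genes. Car4, the membrane carbonic anhydrase of capillaries, stood at 772.8 and 1637 CPM in control, 648.7 and 1116 CPM in GlastiKO and 680.3 and 358.7 CPM in ECiKO (log2 fold change of ECiKO against control -0.97 ± 0.34, edgeR adjusted p = 0.9995). The transferrin receptor Tfrc stood at 1305 and 1262, 825.8 and 946.5, and 1013 and 1141 CPM, and the glutamine carrier Slc38a5 at 235.8 and 307.0, 184.2 and 183.7, and 192.3 and 130.4 CPM. In GlastiKO 7 of the 10 genes were below 0 (median -0.28 against 0.01 for all genes) and 5 lay below both control libraries, against 16.9% of all genes. Both groups were set against the same control libraries.

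Of 19 arterial genes outside the rule 11 were tested, and 7 of these had both ECiKO libraries above both control libraries, against 12.0% of all genes (median log2 fold change 0.31). For GlastiKO 7 of the 11 had a log2 fold change above 0 (median 0.11), and 2 were separately higher, against 12.7% of all genes. Hey1, a Notch-induced transcription factor gene of arteries, stood at 41.1 and 45.5 CPM in control, 58.7 and 63.6 CPM in GlastiKO and 91.0 and 228.2 CPM in ECiKO (1.33 ± 0.41, edgeR adjusted p = 0.9995). Efnb2, the arterial ephrin, stood at 79.0 and 11.4, 63.8 and 49.4, and 137.5 and 130.4 CPM (0.99 ± 0.36), and the Notch ligand Dll4 at 122.9 and 102.3, 177.1 and 113.0, and 227.5 and 130.4 CPM (0.83 ± 0.34). Neither passed (edgeR adjusted p = 0.9995 for both). The 8 arterial cell markers outside the rule include Hey1 and Efnb2. They summed to 235 and 125 CPM in control, 220 and 191 CPM in GlastiKO and 318 and 391 CPM in ECiKO. Hey1 and Efnb2 made up most of the ECiKO sums, so the sums are not a separate result. No UMI was found for 5 of the 8 in ECiKO replicate 2 and for 4 in control replicate 2. The arteriole-side capillary list, which holds Cxcl12 and Tgfb2, had 3 of 8 genes above 0 and a median of -0.15.

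**Figure D5:**
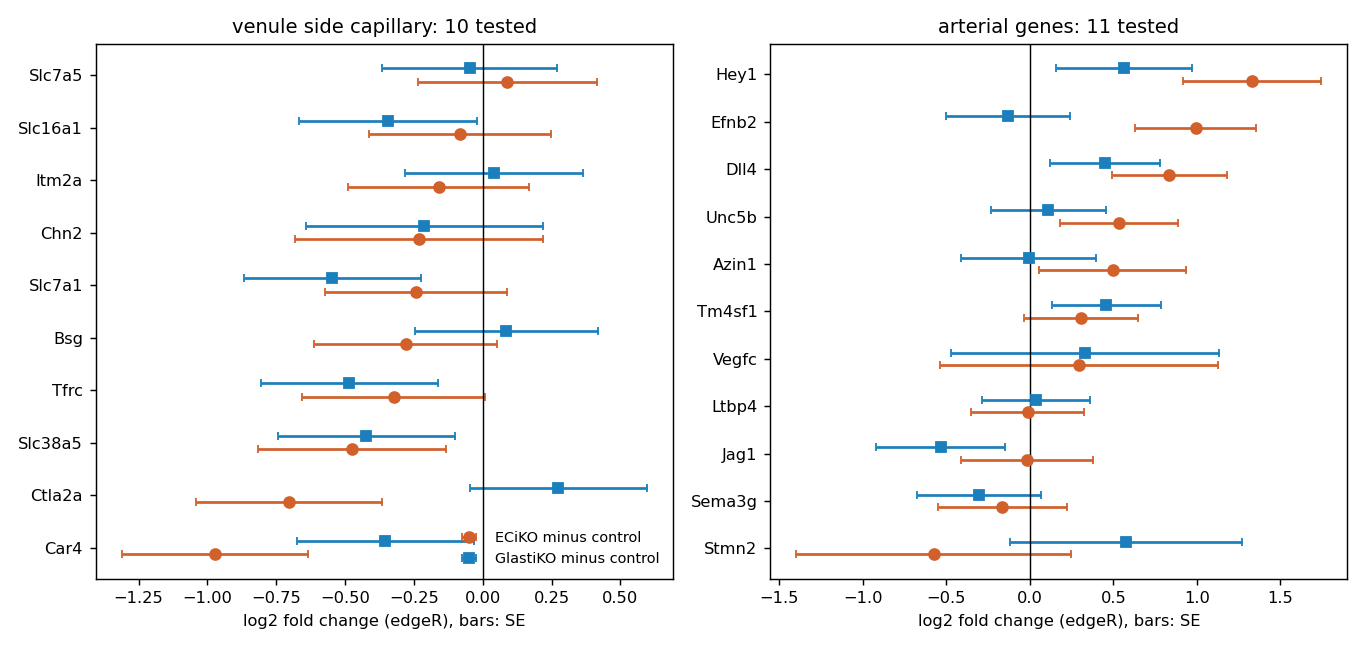
Log2 fold changes against control from edgeR, with SE bars, for the 10 tested genes of the venule-side list and the 11 of the arterial list, in ECiKO (circles) and GlastiKO (squares). In ECiKO 9 of 10 venule-side genes lie below 0, down to Car4 at -0.97, and Hey1 lies highest of the arterial genes at 1.33, while none of the 21 passed the test.

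Igfbp3 was higher in both ECiKO libraries without passing, at 6.6 and 0 CPM in control, 15.2 and 0 CPM in GlastiKO and 31.0 and 97.8 CPM in ECiKO (12, 0, 15, 0, 30 and 3 UMIs; log2 fold change 2.50 ± 0.72, edgeR adjusted p = 0.920). In the other endothelial cells it stood at 698.7 and 2077 CPM in control, 155.1 and 126.6 CPM in GlastiKO and 161.5 and 0 CPM in ECiKO. In the replicates 2 that class held 10, 17 and 5 cells (29856, 78991 and 7391 UMIs) in control, GlastiKO and ECiKO. The matricellular gene Ccn2 stood at 29.1 and 11.4, 85.0 and 21.2, and 50.7 and 130.4 CPM. Among genes lower in ECiKO that did not pass, the iron-sulfur protein gene Cisd2 stood at 142.1 and 307.0, 122.5 and 190.7, and 103.4 and 32.6 CPM (-0.91 ± 0.37), and Cep295, Tfg and Eif2a had no UMI in ECiKO replicate 2.

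Secreted factors of the vascular niche gave 1 call. Cxcl12 stood at 5134 and 4900 CPM in control, 5256 and 6315 CPM in GlastiKO and 5549 and 6684 CPM in ECiKO (0.20 ± 0.33 for ECiKO and 0.26 ± 0.33 for GlastiKO). Kitl, the stem cell factor, stood at 1231 and 1228, 1174 and 1031, and 1136 and 1532 CPM, and the pericyte-recruiting Pdgfb at 697.1 and 579.8, 622.4 and 565.1, and 701.0 and 358.7 CPM. Cxcl12 was above control in every GlastiKO and ECiKO library, and Kitl and Pdgfb overlapped in ECiKO. Of 30 listed ligands 19 were tested, 12 had a log2 fold change above 0 in each labelled group, 6 were separately higher in ECiKO and 5 in GlastiKO, against 12.0% and 12.7% of all genes. Ccn1 in GlastiKO passed, where 0.114% of all genes were called higher. Genes of junctions (15 tested), Wnt signalling (20), VEGF, angiopoietin and TGF beta receptors (16) and vesicle traffic (12) gave no call in either labelled group.

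Whether a labelled group's difference was larger in capillary than in other endothelial cells was tested by an interaction term with the library as a block, over 5512 genes and 12 sums. The difference in the effect of ECiKO passed for 13 genes (0.236%) and that of GlastiKO for 20 (0.363%), beside 2.45% and 2.2% at an unadjusted p under 0.05. For Gja1 the capillary effect of ECiKO minus the other endothelial one was 1.39 ± 0.56 (log2), which did not pass (edgeR adjusted p = 1). Gja1 in the other endothelial cells stood at 142.8 and 201.0 CPM in control, and in ECiKO at 203.6 and 0 CPM. The replicate 2 values rest on 10 cells with 29856 UMIs in control and 5 cells with 7391 UMIs in ECiKO, so the 0 is weak. The other class was not the same in all groups: cells with at least 2 Plvap UMIs, of fenestrated or sprouting vessels, were 32 of its 176 cells in control replicate 1 (18.2%), 1 of 10 in control replicate 2, 2 of 135 in GlastiKO replicate 1 and none in the other 3 libraries. Without these cells 2 and 4 genes passed, all of them haemoglobin genes, the Gja1 difference was 0.32, and without these and the cells of over 100 haemoglobin UMIs none passed with edgeR. Both alternatives were chosen after seeing the data. The interaction for Fosb in GlastiKO, 2.38 ± 0.52 with all cells (edgeR adjusted p = 0.00255), was 1.84 without both kinds of cell (edgeR adjusted p = 1).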

How the data were processed

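Per the file headers, the authors deposited unnormalized UMI counts for 32285 genes in 7433 cell barcodes, the same number per library as the labels' protocol states. The labels' protocols and the file headers name Cell Ranger 5.0.0 and mm10, while Cell Ranger 2.1.1 and Seurat 4 stand in the submitters' processing notes. The libraries were made with a droplet kit that counts transcript 3′ ends.

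Cells with at least 300 genes and at most 20% mitochondrial UMIs were kept. Scrublet (scanpy 1.11.5) called 54 doublets (0.854%), 27 of them capillary, which were kept and left out in an alternative. Counts were summed per library over capillary cells and tested in 1 edgeR fit (version 4.0.16, in R 4.3.3) of all 6 libraries with group as the term, TMM scaling and the filterByExpr filter. With 3 residual degrees of freedom the p-values depend mainly on the variance shared across genes (biological coefficient of variation 19.3%). SE is the absolute log2 fold change over the square root of F. Sums ranged from 30670 to 1823211 UMIs. Simulated data of 7889 genes at these depths gave a recovery of 15% of 2-fold and 77% of 4-fold changes for ECiKO against control, with 4 false calls, and 14% and 78% for GlastiKO, with 2. The changed genes were 200 of at least 20 CPM, with the spread of the fitted trend, so the recovery does not cover weaker genes. In the data 61 genes for ECiKO and 113 for GlastiKO had an unadjusted edgeR p under 0.05, against 394.5 by chance. Alternatives used DESeq2 1.42.0, other scalings and filters, other membership rules, and left-out libraries. Intervals cover counting error only.

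Named genes were Gja1, up to 10 called genes per direction of at least 20 CPM by smallest p, filled to 5 with genes that did not pass and whose groups did not overlap, and up to 4 per list. Genes of the rule, markers of other cells and unnamed models were left out. Gja4, Gja5, Mgp, Ptgs2, Fbln5, Hspa1a, Fos, Dusp1 and Zfp36, the marker genes and several genes of the lists were named after their values were seen. The members and lists were chosen with earlier results of these data known.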

Additional observations from a re-analysis of the deposited data

Results flagged for a closer look

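The genes below drew attention because the test of the difference between classes passed: their change against control differed between capillary and other endothelial cells of the same libraries (edgeR interaction term, adjusted p under 0.05). Values are the capillary log2 fold change minus the other endothelial one.

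For the libraries labelled ECiKO the difference was positive in Ehd4 by 2.46, Plpp3 by 6.18, Cald1 by 3.38, Efnb2 by 2.04, Tcim by 4.15, Plscr2 by 2.75, Igfbp3 by 4.80, Cd300lg by 9.70, Plpp1 by 3.08 and Rgcc by 2.82. It was negative in Gm10800 by -4.46, Hbb-bs by -6.30 and Hba-a2 by -7.32. Igfbp3, Plpp1, Ehd4 and Plscr2 were among the genes lowest in capillary relative to other endothelial cells.

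For the libraries labelled GlastiKO the difference was positive in the signal-induced genes Ccn1 by 2.20, Fosb by 2.38, Socs3 by 2.24, Fos by 2.50, Nr4a1 by 2.28 and Egr1 by 2.09. Without GlastiKO replicate 2, whose other class held 17 cells, these were 2.11, 1.88, 1.93, 1.78, 1.69 and 1.26. Without GlastiKO replicate 1 they were 5.37, 4.32, 9.67, 3.39, 5.80 and 6.11. The immediate early list summed in the other cells to 10090 and 14436 CPM in control and to 9942 and 3064 CPM in GlastiKO. In capillary cells it summed to 4803 and 7185 CPM, and to 8634 and 8801 CPM. The difference was also positive in Ehd4 by 2.32, Plpp3 by 4.50, Tcim by 3.16, Plscr2 by 3.10, Cited2 by 3.43, Ramp3 by 3.05, Igfbp3 by 3.37, Cd300lg by 5.31, Plpp1 by 3.52 and Rgcc by 2.31. The haemoglobin genes had a difference of Hbb-bt -10.10, Hbb-bs -10.44, Hba-a1 -11.31 and Hba-a2 -11.82. One other endothelial cell of GlastiKO replicate 2 held 5960 of that class's 5997 haemoglobin UMIs.

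Of the genes still above the filter, none passed without other endothelial cells of at least 2 Plvap UMIs and cells of over 100 haemoglobin UMIs (0 called in each comparison with edgeR), an alternative chosen after seeing the data.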

How the results depend on the processing

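Counts of called genes moved with several choices; the cause was not tested. For ECiKO against control (2 genes) they were 6 with no filter on low counts, 0 with DESeq2, 4 with the replicate number as a block, 7 with libraries of at least 20 capillary cells, 0 with membership at 2000 UMIs, 1 without cells of over 100 haemoglobin UMIs, and 3 to 11 when 1 library was left out. For GlastiKO against control (10 genes) they were 0 with DESeq2, 17 with the block, 1 with membership at 2000 UMIs and 2 to 13 when 1 library was left out. For ECiKO against GlastiKO (0 genes) they were 5 with the block and 0 to 16. The interaction counts (13 and 20 genes) were 4 to 18 for ECiKO and 4 to 22 for GlastiKO when 1 library was left out, 2 and 4 without other endothelial cells of at least 2 Plvap UMIs, and 0 and 0 without either kind of cell.

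Gja1 in ECiKO against control kept its direction, with log2 fold changes of 1.67 with DESeq2 (adjusted p = 1), 1.49 with the stricter membership (edgeR adjusted p = 0.270) and 1.43 with membership at 2000 UMIs (edgeR adjusted p = 0.798), none of which passed; leaving out 1 library gave 1.67 to 1.75. Dll4 in ECiKO changed sign without ECiKO replicate 1, at -0.039, and leaving out each library gave -0.039 to 1.15. Same-numbered libraries deviated together only weakly across genes (correlations 0.0917, 0.0523 and 0.0375), and the main fit did not use the number as a block. These correlations cannot exclude a shared effect of the number, since the sums of the replicates 2 are shallow. The makeup of the libraries followed the number in all groups. With the number as a block Gja1 in ECiKO gave 1.72 (edgeR adjusted p = 6.69e-05). The 16 capillary cells of ECiKO replicate 2 limit every statement on that group.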
